A study of Mus musculus with 9 samples.

Results

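The cytosolic ribosomal protein genes encode the proteins that, together with ribosomal RNA, build the ribosome of the cytoplasm. Members were the rows of the blood table named Rpl or Rps with a following digit, or Rplp0, Rplp1, Rplp2 or Rpsa, leaving out names marked as pseudogenes and the S6 kinases. The rule took 92 of 23499 genes and left out 250 rows named as pseudogene copies. By role they were 43 proteins of the large subunit, 31 of the small subunit, 3 of the stalk and 15 like-genes, a group that holds paralogs, retrogene copies and other genes whose names the rule also takes. The first 3 roles together are called core genes here, and they numbered 77.

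A ribosome has a large subunit, which forms the peptide bond, and a small subunit, which reads the message. The acidic stalk, built from Rplp0, Rplp1 and Rplp2, recruits the factors that drive each step of elongation. Many mRNAs of these proteins begin with a run of pyrimidines, the terminal oligopyrimidine tract, through which the mTOR pathway controls their translation. Mature neutrophils are known to have shut down much of the ribosome production of their precursors, whereas resting lymphocytes are known to hold abundant ribosomal protein mRNA.

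Blood of 9 female 129SvE mice was profiled by Seq-Well, a method that captures cells with barcoded beads in small wells. The healthy group had 4 mice, all at disease stage 0, and the Sick group had 5 mice of the rheumatoid arthritis model at stages between 1.5 and 2.5. The labels used here give neither the animals' age nor the way arthritis was induced. A second table of joint cells was deposited too, and its columns match none of the 9 samples. Both tables name a cell class for each column. The tissue label PBMC, for mononuclear cells, stood beside a table in which granulocytes were the largest class, with 1905 of 4310 columns.

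Total signal reached at most 2053973 in a healthy mouse (at least 330950) and never fell under 8350920 in a Sick one (at most 13557201), so the healthy values rest on less material. Of the 4310 blood columns, 1313 were identical to another column and 734 to a column of another mouse, and 59 of 302 healthy columns were identical to a Sick column. The mice are therefore less independent than the tests assume, and results without such columns are given where they differ. Only 1 barcode occurred in more than 1 mouse. The granulocyte, B and CD4 T classes had the highest level of 14 of 16 neutrophil, 8 of 10 B cell and 13 of 13 T cell markers. Those 13 include Cd8a and Cd8b1 beside Cd4, so the markers show T cells and not CD4 T cells alone. The name CD4 T is kept below only as the deposited name of that class. The class named foxP3 T had the highest level of 0 of 13 T cell markers but of 7 of 10 NK cell and 6 of 11 erythroid markers. Its T cell markers summed to between 0.135% and 0.169% of the signal in healthy and between 0.105% and 0.550% in Sick mice. In the CD4 T class they took between 0.535% and 0.631% in Sick mice. Foxp3 is not among the markers, so they do not settle the name, and the class is called by its deposited name only. Hemoglobin genes held between 0.630% and 54.9% of a mouse's signal, and their share is given beside the results it moves with.

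The following windows show the annotated start of 6 of these genes, chosen because the results below turn on them or on their families. Each runs from 30 bases before the start base to 19 bases after it, on the gene's own strand, in RefSeq's annotation of GRCm38.p6. Capitals mark a run of at least 6 bases that begins with C and goes on with C or T only. It is counted from the nearest such C within 10 bases of the start base on either side. C or T may also stand just before the capitals, so the full stretch can be longer than the marked run. Rps19 has 3 annotated starts, and Rps24 and Rps27l have 2 each. For these genes the first start with such a run is shown, so the window was picked for its run.
Rps19: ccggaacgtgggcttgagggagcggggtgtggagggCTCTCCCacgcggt
Rps24: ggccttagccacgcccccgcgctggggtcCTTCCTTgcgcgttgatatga
Rps27: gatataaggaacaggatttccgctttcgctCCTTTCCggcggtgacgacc
Rps27rt: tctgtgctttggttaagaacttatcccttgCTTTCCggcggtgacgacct
Rps27l: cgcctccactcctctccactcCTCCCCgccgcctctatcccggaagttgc
Rpl4: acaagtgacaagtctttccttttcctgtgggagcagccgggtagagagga
They lie at chr7:24884883-24884932 (plus strand), chr14:24490648-24490697 (plus), chr3:90213629-90213678 (minus), chr9:114982720-114982769 (minus), chr9:66946056-66946105 (plus) and chr9:64173357-64173406 (plus). Of the core genes, 57 matched the RefSeq table by symbol. Of these, 31 (54.4%) held such a run at any of their annotated starts, against 5908 of 27018 genes of the whole table (21.9%). The start base was itself a C that began at least 6 bases of C or T in 11 of the 57 (19.3%) and in 2.04% of all genes. This count did not ask whether C or T also stood before the start base. In Rps27 and its retrogene copy Rps27rt the marked run begins on the start base, over 7 and 6 bases. In Rps27 a C and a T stand just before it. In Rps27l the marked run lies before the start base, also with C and T just before it. In Rpl4 no such run begins within 10 bases of the start base, but a longer stretch of C and T lies further upstream in the window. Only the gene's own strand was searched, the start bases are annotated and not measured here, and a match is a description of the letters.

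Over all blood columns the 92 members held 5.64% of the signal. The unit is SPM, the summed signal of a gene per 1000000 of the summed signal of all genes. The small subunit made up 46.1% of the members' signal, the large subunit 40.7%, the stalk 7.55% and the like-genes 5.64%. A few genes held much of it, since the 5 highest took 30.2% and the 10 highest 45.2%. Rps19, the small subunit protein mutated in many patients with Diamond-Blackfan anemia, was at 5072 SPM, ahead of Rps14 at 4128, Rpl32 at 3263, Rps18 at 2396 and Rpl41 at 2186 SPM. The lowest 5 were Rpl10l at 1.85, Rpl29 at 1.84, Rps4l at 1.51, Rpl39l at 0.576 and Rps12l1 at 0.396 SPM. No member was at 0 in every blood column, 10 were under 10 SPM and 22 reached 1000 SPM. Divided by the length of the annotated transcript the order at the top changed, with Rps14 at 6915, Rpl32 at 6312, Rps24 at 4426, Rps18 at 4278 and Rps19 at 3950 SPM per kilobase. The reads start at the polyA tail, so a long transcript does not by itself give more reads.

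The low values of several proteins that every ribosome carries went together with shared sequence. In the last 500 bases of the annotated transcripts, 63 of the 77 core genes had 50-base windows, the read length, that occur in another gene, and in 42 of them more than 50% of the windows did. Of the 27 core genes under 100 SPM, 21 had more than 50% of their windows shared, against 21 of the 50 at 100 SPM or more. Across the 77 core genes, the share of such windows and the level had a Spearman rho of -0.34, a description over genes, which are not independent. A processed pseudogene named Rps3a3 carried 1219 SPM and the intron-bearing gene Rps3a1 29.3 SPM. Likewise Rpl9 was at 36.7 SPM beside 554 for Rpl9-ps6, and Rps13 at 32.5 SPM beside 648 for Rps13-ps1. These pairs were chosen after their values were seen. The last 60 bases of the coding sequence, stop codon included, show how near the copies are, with capitals at the bases that differ from the gene.
Rps3a1: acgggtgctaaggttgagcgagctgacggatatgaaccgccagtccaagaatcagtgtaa
Rps3a3: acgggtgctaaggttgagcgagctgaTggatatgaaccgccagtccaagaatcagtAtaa
Rps13: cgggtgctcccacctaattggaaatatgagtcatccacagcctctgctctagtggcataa
Rps13-ps1: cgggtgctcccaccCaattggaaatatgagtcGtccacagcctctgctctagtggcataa
Rpl9: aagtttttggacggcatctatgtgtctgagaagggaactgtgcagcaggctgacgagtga
In GENCODE M21 on GRCm38 these genes lie at chr3:86137940-86142702 (minus), chr13:108670603-108671397 (plus), chr7:116331505-116334195 (minus), chr8:87047689-87048226 (plus) and chr5:65388364-65391444 (minus). The copy Rpl9-ps6, at chr19:32465865-32466578 (minus), had 0 differences from Rpl9 in this stretch, and each of the other pairs had 2. How the reads of such pairs were assigned is not given in the sources used here, so single levels of these genes are uncertain. The 610 pseudogene rows that share windows with members held 4.01% of the blood signal, beside the 5.64% of the members.

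**Figure D1:**
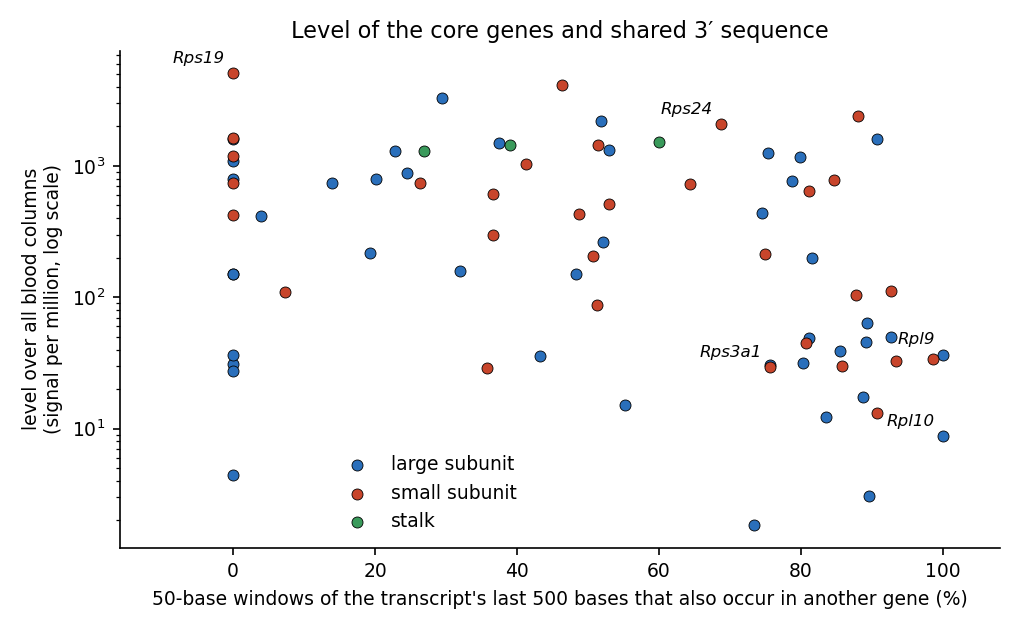
Level of each of the 77 core genes over all blood columns (SPM, log scale) against the percentage of 50-base windows in the last 500 bases of its transcript that also occur in another gene; each point is a gene, coloured by role. Most genes under 100 SPM sit at the right, where over 50% of the windows are shared, and Rps19 sits at 0% with 5072 SPM.

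The summed share differed between granulocytes, B cells and CD4 T cells within mice. Granulocytes had the lowest share, 2.78% ± 0.73 of their signal (SD, n = 9 mice with at least 5 such columns), B cells had 7.61% ± 2.26 (n = 8) and CD4 T cells 10.2% ± 0.76 (n = 6). In granulocytes the healthy mice 1 to 4 were at 3.72%, 2.54%, 2.21% and 2.52%, and Sick mice 1, 3, 4, 5 and 6 at 3.01%, 3.07%, 2.36%, 1.67% and 3.94%. In B cells healthy mice 1, 2 and 4 were at 8.42%, 7.99% and 2.68%, and the Sick mice, in the same order, at 8.58%, 9.69%, 7.46%, 6.45% and 9.59%. The B share was thus 1.99 points higher in Sick mice on average, with overlapping groups, and the gap was 0.146 points without healthy mouse 4 and 0.166 points in columns under 5% hemoglobin (8.76% against 8.60% in the 2 healthy mice kept). In CD4 T cells healthy mouse 2 was at 8.98% and the Sick mice at 9.95%, 11.3%, 10.1%, 10.3% and 10.2%. Within each mouse the B class stood above the granulocyte class in 8 of 8 mice, by 4.76 points ± 1.95, and the CD4 T class above the B class in 6 of 6, by 1.86 points ± 1.21. Healthy mouse 4 came closest to a tie, with a gap of 0.160 points, and in its B columns hemoglobin took 40.7% of the signal. With hemoglobin left out of the total, B still stood above granulocytes in 8 of 8 mice. With the 610 pseudogene rows added, B stood above granulocytes in 7 of 8 mice, the exception being healthy mouse 4, and CD4 T above B in 4 of 6. No test was run on these sums, since they are a score over the members.

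**Figure D2:**
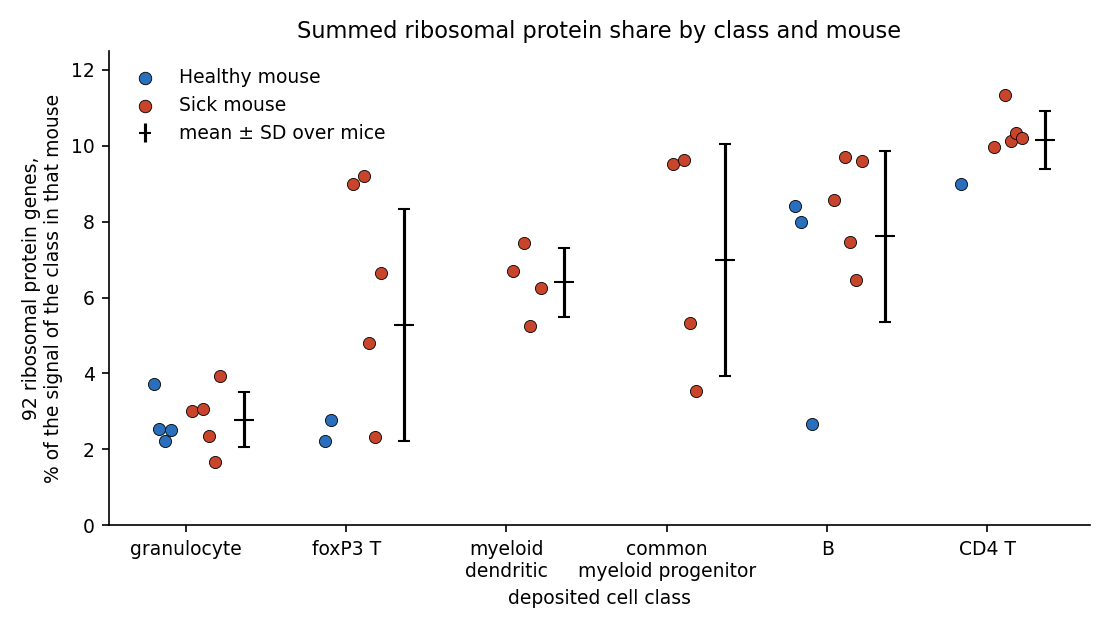
Share of the 92 ribosomal protein genes in the signal of each class (percent), 1 point per mouse with at least 5 columns of the class, with the mean and SD over mice in black. Every CD4 T point lies above every granulocyte point, and the B point of healthy mouse 4, at 2.68%, lies among the granulocytes.

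The other classes had means between those of granulocytes and CD4 T cells. Common myeloid progenitor columns had 9.51%, 9.63%, 5.32% and 3.53% in Sick mice 1, 3, 4 and 5. Hemoglobin took 2.46%, 3.31%, 23.3% and 42.9% of their signal, and the 2 mice with more hemoglobin had the lower shares. With hemoglobin left out of the total the shares were 9.75%, 9.96%, 6.94% and 6.18%, still lower in these 2 mice. Myeloid dendritic columns had 6.69%, 7.43%, 5.24% and 6.24% in Sick mice 1, 3, 4 and 6. The class named foxP3 T was at 2.21% and 2.78% in healthy mice 3 and 4 and at 8.996%, 9.20%, 4.81%, 2.31% and 6.64% in Sick mice 1, 3, 4, 5 and 6. Hemoglobin took 56.8% and 41.7% of its signal in these healthy mice and 0.174%, 0.657%, 45.3%, 61.7% and 18.5% in the Sick mice. The means were 2.49% ± 0.40 (n = 2) and 6.39% ± 2.91 (n = 5), with Sick mouse 5 inside the healthy range, and without hemoglobin in the total they were 4.94% ± 0.24 and 8.25% ± 1.30. What part hemoglobin had in these values was not tested.

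Of the 82 members at 10 SPM or more, 77 were lowest in granulocytes, 59 highest in CD4 T cells and 14 highest in common myeloid progenitors. The same counts over all genes were not made, so these do not set the members apart from other genes. The class means also rest on different mice. Pooled over mice, hemoglobin took 23.5% of the granulocyte signal and 0.585% of the CD4 T signal, and its part was not tested. Rps19 averaged 2274 ± 566 SPM in granulocytes (n = 9), 7316 ± 2176 in B cells (n = 8) and 9536 ± 915 in CD4 T cells (n = 6). Rplp0, the anchor of the stalk, departed from this order and was highest in common myeloid progenitors, at 2218 ± 884 SPM (n = 4) beside 2056 ± 341 in CD4 T cells, a gap smaller than either spread. The members with the widest range of class means were low ones. Among those with a ratio between highest and lowest class, Rpl28 led with 19.5 and Rpl6l had 11.9. Rpl29, Rps4l, Rpl39l and Rps12l1 have no such ratio, since their lowest class mean was 0. At such levels a class mean rests on few units of signal.

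The balance of the subunits moved by a few points between classes. The small subunit held 46.3% ± 1.2 of the members' signal in granulocytes, 46.2% ± 0.65 in B cells, 47.5% ± 0.21 in CD4 T cells and 44.5% ± 1.1 in common myeloid progenitors. The progenitor values, from 43.5% to 45.6%, did not overlap the CD4 T values, from 47.2% to 47.8%. The large subunit held 40.4% ± 1.2, 41.0% ± 0.65, 39.5% ± 0.31 and 41.0% ± 1.2 in the same order. Myeloid dendritic columns had 44.6% ± 0.61 of small and 42.3% ± 1.3 of large subunit signal (n = 4). Rps27l differed by a larger factor. It encodes a close paralog of Rps27 and is known as a target of p53. It made up 1.06% ± 0.093 of the members' signal in common myeloid progenitors (n = 4), 0.599% ± 0.169 in granulocytes (n = 9), 0.209% ± 0.089 in B cells (n = 8) and 0.140% ± 0.020 in CD4 T cells (n = 6). The lowest of the 4 progenitor values, 0.931%, was above the highest granulocyte value of 0.850%, and the highest CD4 T value was 0.168%. Rps27rt ran the other way, with 153 ± 77.4 SPM in common myeloid progenitors and 735 ± 77.2 in CD4 T cells. Rps27 itself was at 33.6 SPM over all blood columns, with 98.6% of its windows shared, so reads of Rps27 and Rps27rt may not be told apart.

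**Figure D3:**
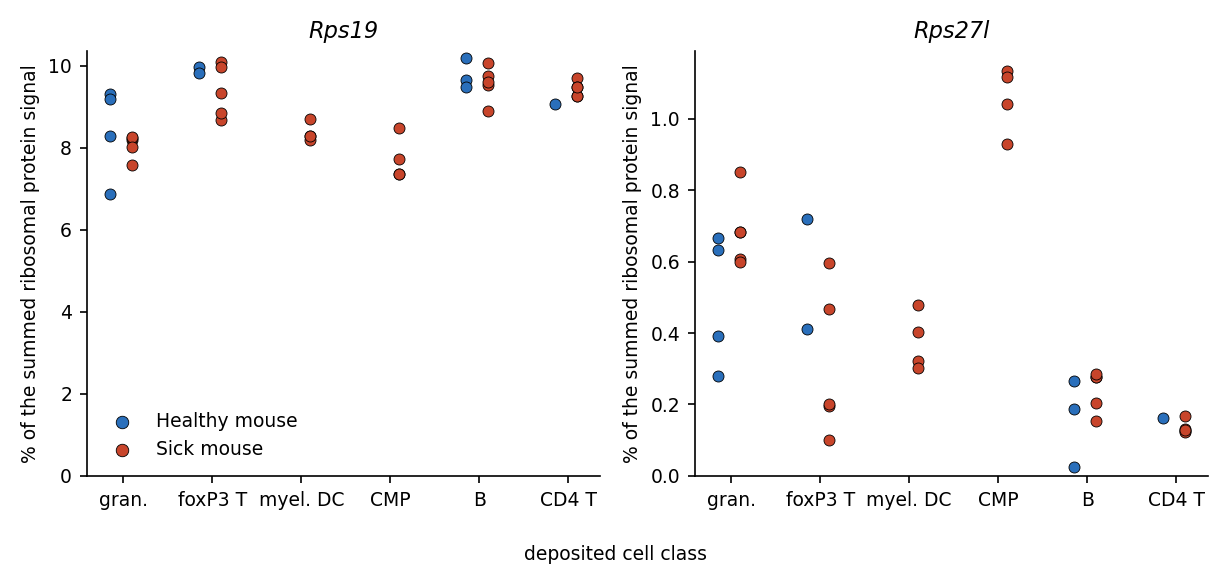
Percent of the summed ribosomal protein signal held by Rps19 (left) and Rps27l (right), 1 point per mouse and class, for mice with at least 5 columns (gran., granulocyte; myel. DC, myeloid dendritic; CMP, common myeloid progenitor). Both axes start at 0; Rps27l lies between 0.931% and 1.14% in the progenitors and at 0.168% or less in CD4 T cells.

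Within granulocytes the share varied widely from column to column. In Sick mouse 1 the members took a median of 5.63% of the signal in the 25% of columns with the lowest share of secondary granule genes (such as lactoferrin) and 1.33% in the 25% with the highest, with hemoglobin left out of the total. The medians were 5.78% and 1.27% in Sick mouse 3, 4.68% and 1.49% in Sick mouse 4, 3.60% and 1.64% in Sick mouse 5, and 5.36% and 3.02% in Sick mouse 6. Spearman's rho between the shares was between -0.41 and -0.72 over the 249 to 489 columns of each Sick mouse, and -0.37 over 20 columns of healthy mouse 4. These are descriptions across columns that share a library, some of which are identical, and 2 shares of 1 total pull against each other.

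The B and granulocyte classes were compared within 8 mice, 3 healthy and 5 Sick, with limma on the difference in log2(scaled SPM + 1). Scaled SPM means SPM after TMM scaling, which removes a common shift between libraries. How the columns were given their classes is not stated in the sources used here, so the comparison describes the classes as deposited. Where the naming used expression, its p values are no independent test of cell types. Of 82 members tested, 26 were higher in B cells and 0 lower at an adjusted p under 0.05 over all 8106 genes. Among all genes 8.25% were called higher and 11.7% lower. The median difference of the members was 0.81 and that of all genes -0.09, and 24 members were higher in every mouse, as were 6.08% of all genes. With scaling by the total alone the median of all genes moved to 0.38, the members' median to 1.28 and the members called higher to 57.

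By role, 15 of 39 large subunit genes, 8 of 31 small subunit genes, 1 of 3 stalk genes and 2 of 9 like-genes were called higher. Rps19 was the most abundant of those called. Its scaled SPM in granulocytes was 2623, 1448 and 2969 in healthy mice 1, 2 and 4 and 3105, 3259, 2913, 2929 and 2801 in Sick mice 1, 3, 4, 5 and 6. In B cells it was 5774, 5976 and 3039 in the healthy mice and 6539, 7460, 7319, 4232 and 7225 in the Sick mice. B was higher in every mouse, barely so in healthy mouse 4, and the log2 difference was 1.09 (SE 0.29, limma adjusted p = 0.0318). The next most abundant members, Rps14, Rpl32, Rps18 and Rpl41, differed by 0.71, 0.68, 0.86 and 0.83, each with B higher in 7 of 8 mice, and did not pass (limma adjusted p = 0.110, 0.113, 0.0676 and 0.0618). Rpl4, Rpl13, Rpl37, Rps20 and Rps24, all structural proteins, rose by 0.99, 1.05, 0.79, 1.07 and 1.01. Rplp1 of the stalk rose by 1.11 (SE 0.32, limma adjusted p = 0.0427), whereas Rplp2 differed by 0.80 and Rplp0 by 0.27 without passing the test (limma adjusted p = 0.0922 and 0.696).

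The greatest fitted differences belonged to low genes, and their size and order depended on the processing. Rpl36 was at 15.9 ± 10.01 scaled SPM in granulocytes and 82.3 ± 43.4 in B cells (n = 8), which is 2.94 apart on the log2 scale (SE 0.46, limma adjusted p = 0.00325). Rpl21 differed by 2.93, Rpl23a by 2.40, Rpl17 by 2.18, Rpl36a by 1.79 and Rpl34 by 1.77. Their mean levels in granulocytes were all under 100 scaled SPM, and some single values were 0, so the sizes rest on the added 1. With 10 added instead, the differences were 1.96 for Rpl36, 1.67 for Rpl21, 1.65 for Rpl23a, 1.56 for Rpl34, 1.06 for Rpl17 and 1.03 for Rpl36a. With identical columns left out, they were 1.45, 1.39, 1.20, 1.12, 2.26 and 0.85 in that order. Rpl21 moved between 2.14 without healthy mouse 4 and 3.81 without healthy mouse 1, and Rpl17 lost its call without any 1 mouse other than healthy mouse 4. Of the windows, 89.4% in Rpl23a and 81.1% in Rpl36 are shared with other genes. Healthy mouse 4 was unlike the rest for 3 of them, with 177 scaled SPM of Rpl36, 201 of Rpl23a and 185 of Rpl21 in B cells, against at most 102, 86.2 and 51.7 in the other mice. The retrogene copies Rps27rt and Rpl37rt rose by 1.51 (SE 0.25, limma adjusted p = 0.00416) and 1.30 (SE 0.23, limma adjusted p = 0.00587), each in 8 of 8 mice. The Rps27rt difference lay between 1.39 and 1.98 under every alternative run.

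Rps27l went the other way without passing the test. It was at 221 ± 66.1 scaled SPM in granulocytes and 136 ± 61.6 in B cells, lower in B cells in 7 of 8 mice (log2 difference -1.09, SE 0.53, limma adjusted p = 0.179). Healthy mouse 4 held 7.71 in B cells, a level that rests on 1 unit of signal.

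**Figure D4:**
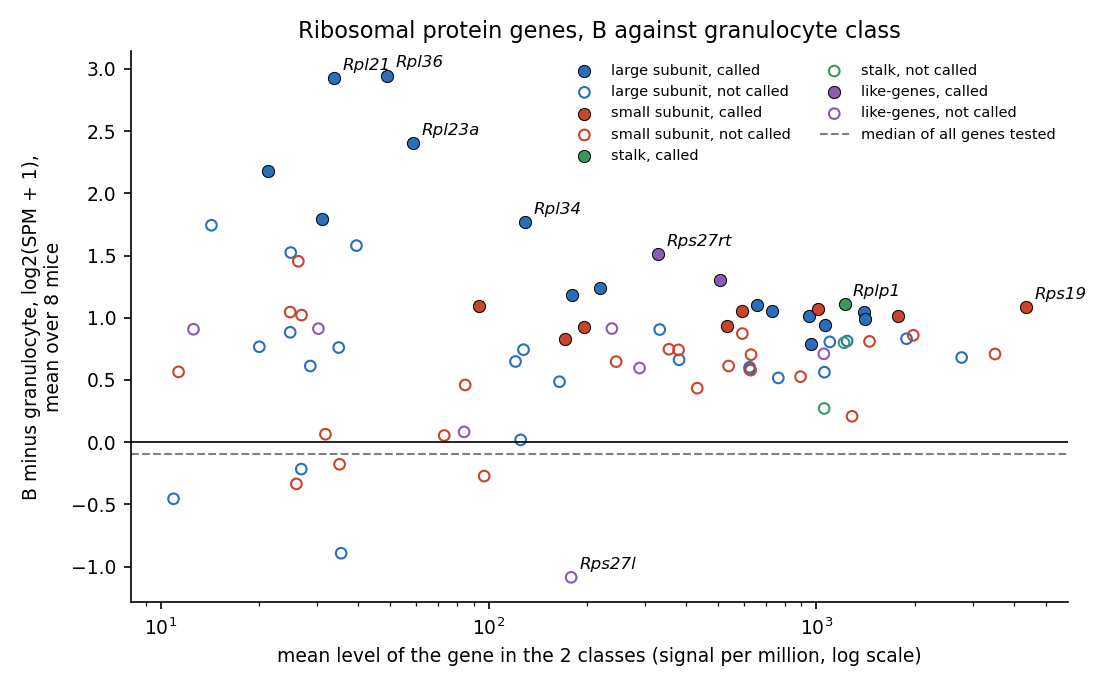
Difference between the B and the granulocyte class in log2(scaled SPM + 1), averaged over 8 mice, against the mean level of the gene in the 2 classes (log scale), for the 82 members tested. Filled points passed limma at an adjusted p under 0.05, and the dashed line is the median of all 8106 genes, -0.09; 26 members are filled, all above 0, and Rps27l is the lowest point at -1.09.

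The number called depended on single mice. Without healthy mouse 4 it was 69. Without healthy mouse 1 it was 16, without healthy mouse 2 it was 17, of which 1 was lower, and without any 1 of Sick mice 1, 3, 4 and 6 it was 6. With identical columns left out, which left 1 healthy mouse in the fit, 45 were called higher and 1 lower. The members' median difference stayed between 0.53 and 1.07 when any 1 mouse was left out.

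Genes that work with the ribosome were followed in lists drawn up for this tissue with earlier results known. Of 32 tested ribosome biogenesis genes, 7 were higher in B cells and 0 lower, where 8.25% and 11.7% of all genes were. The list's median difference was 0.62. Among them were Npm1, the nucleolar chaperone nucleophosmin, with 1.29 (SE 0.25, limma adjusted p = 0.0093), and Ddx21, a nucleolar helicase, with 1.41 (SE 0.32, limma adjusted p = 0.0183). Of 34 translation factors and other pyrimidine-tract mRNAs, Eef1b2, Eef1g and Eif3e were higher by 1.04, 1.08 and 0.98, and 0 were lower. That is close to the 8.25% of all genes called higher, and the list's median was 0.21. Of 69 mitochondrial ribosomal protein genes 1 was higher and 1 lower, the latter being Mrpl33, which fell by 1.38, and the median was -0.22. Of 15 regulators in the mTOR and Myc pathways 3 were higher (Myc, Maf1 and Pdcd4) and 3 lower (Eif4ebp1, Rps6ka1 and Tsc1), with a median of -0.15. Eif4ebp1, a translation repressor that mTOR inactivates, was at 97.4 ± 42.2 scaled SPM in granulocytes and 24.4 ± 16.6 in B cells (log2 difference -2.51, SE 0.39, limma adjusted p = 0.00341).

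Between Sick and healthy mice, no member passed over all blood columns. Of 82 members tested 0 were called by limma, where 0.0473% of 8459 genes were, and 2 members had an unadjusted p under 0.05, as had 13.4% of all genes. The members' median log2 difference was 0.22, that of all genes 0.26, and 74 of the 82 members were above 0, as were 69.3% of all genes. The members' groups overlapped for all 82, whereas 3.64% of all genes lay wholly higher and 1.26% wholly lower in Sick mice. Rps19 was at 3980, 5985, 2995 and 3264 scaled SPM in healthy mice 1 to 4 and at 4258, 5214, 4057, 2907 and 5203 in the Sick mice, so the groups overlapped fully. Rps27l had the smallest p, with 169, 126, 105 and 170 scaled SPM in the healthy and 266, 231, 181, 279 and 130 in the Sick mice (log2 difference 0.58, SE 0.26, limma adjusted p = 0.369). Only Sick mouse 6 fell inside the healthy range. For Rplp0 the difference was 0.35 with an interval from -0.11 to 0.82, and for Rpsa, which is also the laminin receptor, 0.12 with an interval from -0.65 to 0.90. Since a mouse's sum mixes classes whose shares differ, fewer cells of a type and less RNA per cell cannot be told apart here. In columns under 5% hemoglobin, which kept 2 healthy mice, 0 members were called and their median was -0.07. No gene of the 4 lists passed either. The smallest p values in their lists belonged to Eif5a, Tsr1, Mrps18c and Eif4ebp1, with log2 differences of 0.62, -0.53, 0.97 and 1.32 and limma adjusted p of 0.354, 0.404, 0.221 and 0.307.

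In granulocytes 1 of 78 members was called, Rpl17, where 0.655% of 7935 genes were called. Rpl17, a protein of the large subunit, was listed at 0 in all 4 healthy mice and at 14.98, 10.1, 10.3, 8.25 and 24.6 scaled SPM in Sick mice 1, 3, 4, 5 and 6. It entered the test through the Sick mice alone, since only Sick mice 1, 3, 4 and 6 reached the 10 SPM that the filter asks of 4 mice, so its call was set by the filter and is given as a description only. Its fitted log2 difference of 3.77 (SE 0.68, limma adjusted p = 0.0342) depends on the pseudocount and is no bound. The healthy granulocytes had between 59991 and 301431 units of signal, so a few units separate 0 from these levels, and 75.6% of its windows are shared. Leaving out Sick mouse 5 gave an adjusted p of 0.158, and without any 1 of the other Sick mice, as under 2 other scalings, it did not pass the filter and was not tested. The next smallest p values were those of Rpl36 (2.63, limma adjusted p = 0.124), Rps19bp1 (1.35, limma adjusted p = 0.150) and Rps4x (-0.50, limma adjusted p = 0.195). In all 5 members had an unadjusted p under 0.05, beside 21.6% of all genes. In 3 members the Sick mice lay wholly above the healthy ones, as in 8.65% of all genes. The members' median was 0.13 beside 0.53 for all genes. The number of members called was 3 without healthy mouse 1, 2 without healthy mouse 2 and 0 without any 1 of the Sick mice.

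The summed granulocyte share was 2.75% ± 0.66 in healthy (n = 4) and 2.81% ± 0.85 in Sick mice (n = 5), a difference well inside the spread. Hemoglobin took between 22.3% and 53.7% of the signal in healthy granulocytes and between 0.703% and 51.5% in Sick ones. The 16 neutrophil markers, none of them at 0 in the class, summed to between 1.42% and 13.3% of the signal in healthy and between 6.54% and 33.6% in Sick granulocytes, and the 7 secondary granule genes to between 0.202% and 2.91% and between 1.05% and 6.93%. Their part in the comparison was not tested. With hemoglobin left out of the total, the shares became 4.78%, 3.27%, 4.77% and 4.43% in healthy mice 1 to 4 and 3.03%, 3.10%, 3.58%, 3.44% and 4.24% in the Sick mice, with means of 4.31% ± 0.71 and 3.48% ± 0.49. The order of the groups thus turned with the denominator, and they overlapped with either one.

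In B cells, where healthy mouse 3 with 1 column was left out, 0 of 84 members were called by limma and 0 of 9634 genes (0%), and 4 members had an unadjusted p under 0.05, beside 7.84% of all genes. The members' median was 0.50 beside 0.62 for all genes, and 78 of 84 were above 0, as were 73.4% of all genes. The B class also had the highest level of 9 of 10 plasma cell markers, none of them at 0, which summed to between 0.0665% and 0.429% of the signal in healthy and between 0.138% and 5.48% in Sick mice. The 10 B cell markers took between 0.388% and 0.685% and between 0.577% and 1.31%, and the part of these in the comparison was not tested. Rps19 was at 6304, 7402 and 4188 scaled SPM in healthy mice 1, 2 and 4 and at 7696, 8795, 8665, 5015 and 8988 in the Sick mice, with healthy mouse 4 lowest. Rpl34 alone had no overlap, as had 4.08% of all genes in that direction, with 208, 177 and 106 in the healthy and 223, 300, 263, 241 and 332 in the Sick mice (log2 difference 0.77, SE 0.31, limma adjusted p = 0.495). In columns under 5% hemoglobin, which kept 2 healthy mice, the members' median was 0.14. The test of whether the B minus granulocyte difference itself differed between Sick and healthy mice called 0 of 82 members by limma, where 0.0987% of 8106 genes were called, and 4 had an unadjusted p under 0.05, beside 10.5% of all genes. It called 1 member, as lower, without healthy mouse 1 and likewise without healthy mouse 4.

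**Figure D5:**
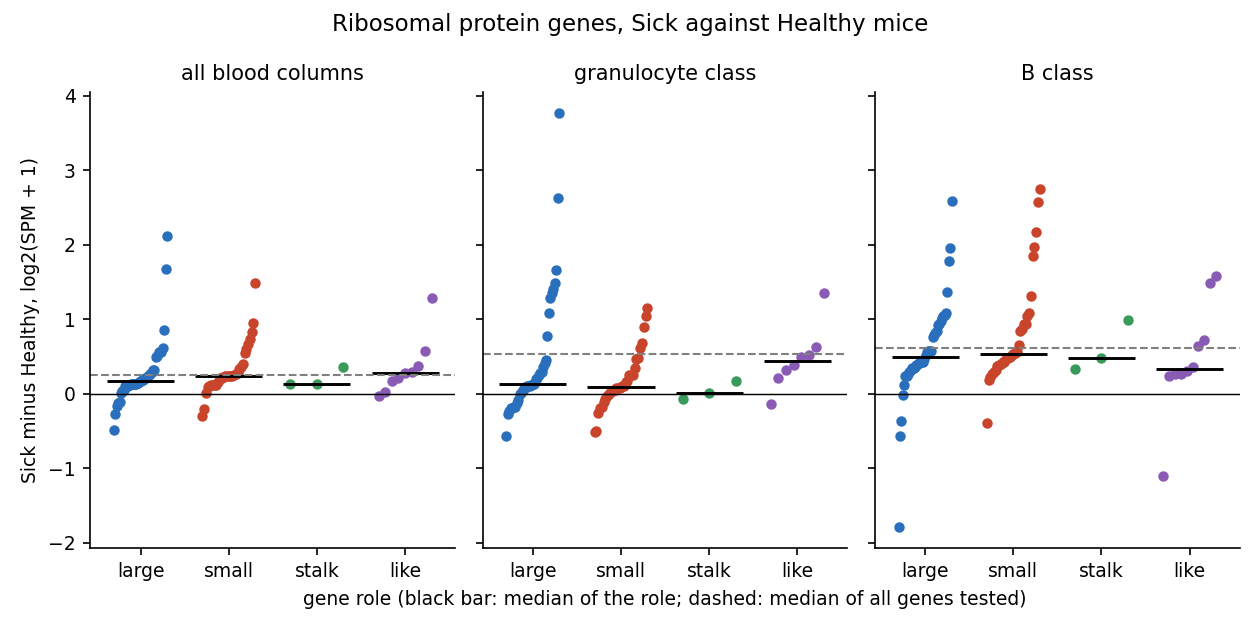
Sick minus Healthy difference in log2(scaled SPM + 1) of each member tested, over all blood columns (82 genes), in granulocytes (78) and in B cells (84), by role. Black bars are the medians of the roles and dashed lines the medians of all genes tested (0.26, 0.53 and 0.62); most members sit between 0 and 1, and Rpl17 is the highest point in granulocytes at 3.77.

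In the joint table the classes could only be pooled, with no mice and so no error. Members held 2.50% of the granulocyte signal there (6487 columns), close to the pooled 2.58% in blood, 6.32% in common myeloid progenitors (1498 columns; 8.34% in blood), 5.22% in B cells (63 columns; 9.06% in blood) and 8.29% in CD4 T cells (28 columns; 10.2% in blood). Of the classes with at most 5 blood columns, macrophages had 2.77% (67 joint columns), osteoblasts 2.64% (58), mast cells 4.43% (17) and adipose cells 2.20% (7). Rps27l was at 703 SPM in joint macrophages, 661 in common myeloid progenitors, 383 in osteoblasts, 290 in B cells, 228 in granulocytes and 178 in CD4 T cells. Rps19 was at 2060 SPM in joint granulocytes and 7873 in joint CD4 T cells. The tables are not independent, since 1262 joint columns were identical to a blood column. Without those the joint shares were 2.55% in granulocytes, 6.34% in common myeloid progenitors, 6.48% in B cells and 8.29% in CD4 T cells.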

How the data were processed

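The authors' deposited blood values are signal in whole numbers for each gene and column; per the labels' protocols, read 1 covered the 20-base barcode and read 2 the transcript from the polyA tail over 50 bases, and reads went through the Drop-seq core protocol with build GRCm38.p5. No source used here names the aligner, the cell filter or the class calling. Identical columns were found, so signal was not treated as counts and no counting intervals are given. The deposited joint values (another unit, signal of pooled classes with no sample) were only described.

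Signal was summed per mouse, or per mouse and class with at least 5 columns. It was put per 1000000, divided by TMM factors (30% and 5% trimmed) and logged (log2) after adding 1. In the comparisons of mice a gene entered when it reached 10 SPM in a number of mice equal to the smaller group. In the within-mouse fit it had to reach 10 SPM in 8 of its B and granulocyte values, counted jointly over the 8 mice. A gene could thus enter that fit through 1 class alone. Each of the 82 members tested there reached 10 SPM in at least 1 mouse of each class. The test was limma 3.58.1 in R 4.3.3, with a trend in the comparisons of mice and none in the within-mouse fit. Benjamini-Hochberg adjustment ran over all genes, with a threshold of 0.05. The mice are separate animals; the labels name no batch. Fits were tested on simulated data.

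Members, lists and markers were chosen with earlier results of these data known. The rule for naming genes took a preset group, every like-gene and extremes of level. It also took up to 10 called genes a direction by size, or 5 by p where fewer than 5 passed. Some genes were named beside this rule, among them Rpl13, Rpl37, Rps20 and Rps24, and some that it took are not reported in the text. Rpl37rt was counted as a like-gene after the rule was written. Alternatives changed scaling, filter, pseudocount, columns, hemoglobin, weights and mice; the limit of 5% hemoglobin, the pseudogene rows and the joint table without shared columns were added after the data were seen. Python 3.11.15 did the rest.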

Additional observations from a re-analysis of the deposited data

Results flagged for a closer look

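The summed ribosomal protein share of CD4 T columns in Sick mouse 3 was 11.3%, far from the other 4 Sick mice, which lay between 9.95% and 10.3%. It was the only such value among 28 groups of mice looked at, and chance alone sets 1 apart in about 1 in 20 groups. With hemoglobin left out of the total, Sick mouse 3 was at 11.3% and Sick mouse 4 at 11.1%, so these no longer lay far apart. Hemoglobin took 8.71% of the signal in the CD4 T columns of Sick mouse 4.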

How the results depend on the processing

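Over all blood columns and in B cells 0 members were called for Sick against healthy mice under every alternative run. In granulocytes the count of 1 became 0 under scaling by totals or by median-of-ratios factors, 7 without the filter on low genes, and 2 with identical columns left out, with hemoglobin genes left out or with a minimum of 10 columns, and it ran from 0 to 3 without 1 mouse. For B against granulocytes the count of 26 became 57 under scaling by totals, 40 under median-of-ratios factors, 42 with a pseudocount of 10 SPM, 46 with identical columns left out, 30 from the mean of single columns and 21 without hemoglobin genes, and ran from 6 to 69 without 1 mouse. The difference between classes in the contrast of disease called 1 with identical columns left out, a fit whose healthy side is 1 mouse, and 0 to 1 without 1 mouse. For the called genes that the naming rule took in the within-mouse comparison, 195 of the 256 values under alternatives kept direction and call. The other 61 kept direction only. The cause was not tested.

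The Sick minus healthy difference of the granulocyte share, 0.062 points, became -0.84 without hemoglobin genes in the total and -1.70 without hemoglobin, mitochondrial and RNA loci. With the pseudogene rows added, the B difference of 1.99 points became 4.17 (0.166 in columns under 5% hemoglobin, and 0.146 to 3.02 without 1 mouse) and the B minus granulocyte difference of 4.76 points 8.53. Joint shares with these rows were 3.83% in granulocytes, 9.78% in common myeloid progenitors, 5.09% in the class named foxP3 T and 8.63% in B cells. The granulocyte share was 1.61% as a median over columns and the foxP3 T share 5.69% without hemoglobin.

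Healthy and Sick mice share replicate numbers 1, 3 and 4 but are different animals. Deviations of same-numbered mice correlated at -0.0041, -0.29 and 0.30 over 8459 genes. So few pairs cannot show whether a shared number stands for a shared batch. A fit with the replicate block called 0 members over all columns, 0 in granulocytes and 0 in B cells, and 40, 190 and 13 genes in all. Low-hemoglobin columns left no healthy mouse for granulocytes, so that alternative could not be fitted there or within mice. The lower signal of the healthy mice limits what their low genes can show.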
